A study of Eublepharis macularius with 18 samples.

Results

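Ventricle RNA of leopard geckos (Eublepharis macularius, a lizard) sampled 14 days after cryoinjury was compared with that of sham-operated animals. The comparison used 6 of 18 libraries, 3 at 14 days post injury (dpi) and 3 sham, and each row of the deposited table whose normalized counts averaged 10 or more over these 6. That kept 9865 of 12376 rows. Of the 2511 rows under the minimum, 764 were at 0 in all 6 libraries. Rows nearest the minimum had means of 9.91 to 9.99 just under it and 10.003 to 10.157 just over it.

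In the injured animals the ventricle was exposed by surgery, the pericardium was torn and a metal probe chilled in liquid nitrogen froze part of the wall. The tissue came from beside the injury, and from a similar place in sham and untouched control animals. Each library held poly-A RNA of 1 animal, so replicates are separate animals. The other groups of 3 animals were untouched controls and animals at 3, 30 and 100 dpi. The labels give no strain, age or transgene, do not say what the sham operation included, and give no day of sampling for sham. Time since surgery may therefore differ between the groups and cannot be told apart from injury. Transcripts were assembled from the gecko reads and named after mouse genes, so each symbol and identifier below is that of the mouse gene assigned by the authors. How reads were split between gecko paralogs was not tested.

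A frozen patch of heart wall dies and is replaced by a wound tissue rich in collagen, laid down largely by fibroblasts. Collagens give such a tissue its strength, matricellular proteins such as thrombospondins and tenascins tune how cells grip it, and proteases, crosslinking enzymes and integrins remodel it and bind cells to it. In fish and salamander hearts this matrix can be temporary and give way to new muscle, whereas in adult mammals it remains as a scar.

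The sham libraries held 14005868, 19298109 and 18157913 recovered reads and the 14 dpi libraries 12822032, 12646411 and 14488005, in a series range of 12646411 to 34898541. A floor of 3 reads equalled 2.57 to 3.82 normalized counts in these libraries, and this covers counting error only. Cardiomyocyte markers were high in all 6: Myh6 lay between 1987 and 2582 FPKM (fragments scaled by transcript length and library total) and Tnnt2 between 3160 and 4852 FPKM. Markers of smooth muscle were uneven. Myh11, the smooth muscle myosin, was between 0.0618 and 0.238 FPKM, Acta2 between 1088 and 1774 FPKM and Tagln between 0.0720 and 31.1 FPKM. The skin keratin Krt5 was at 0. Myod1 of skeletal muscle reached 2.50 FPKM in sham 3 and at most 0.0853 FPKM in the others.

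Levels below are normalized counts per library, in replicate order. Fold changes are fitted differences of log2(normalized count + 1) with their SE, a scale that understates the change of low genes, and a gene was called at a limma adjusted p under 0.05 over all 9865 rows. At 14 dpi 68 genes rose and 4 fell against sham. The 72 called genes were 0.73% of the rows, with 0.689% higher and 0.0405% lower. The rises spanned log2 0.416 to 5.31, around a median of -0.00311 over all rows. Extracellular matrix genes made up 17 of the 68, from 173 tested members of 8 matrix lists. All lists were chosen with earlier results of these data known. At an unadjusted p under 0.05 there were 1264 of the 9865 rows, 759 higher and 505 lower. Counts at this threshold for the lists below are to be read beside that share.

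The number of calls depended on single libraries. It was 17, 11 and 53 without 14 dpi 1, 2 and 3, and 38, 13 and 49 without sham 1, 2 and 3. 10 of the 72 genes were called in all 6 of these fits and 14 in 0. edgeR's quasi-likelihood test on recovered reads called 66 genes (0.669%) and DESeq2 250 (2.53%). Groups of 3 did not overlap for 12.6% of rows with 14 dpi higher and for 11% with 14 dpi lower.

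**Figure D1:**
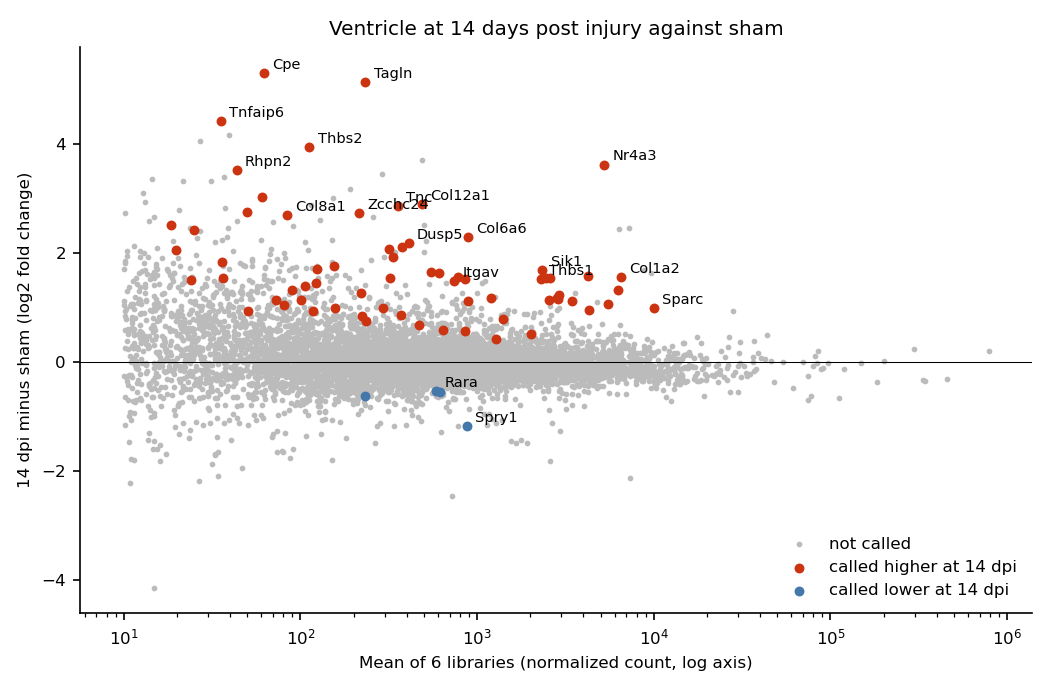
Fitted log2 fold change (14 dpi minus sham, y axis) against the mean normalized count of the 6 libraries (x axis, log scale) for each of 9865 rows. The 68 rows called higher are red, the 4 called lower are blue, and grey rows were not called. The red points reach log2 5.31, while the lowest blue point, Spry1, is at -1.17.

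Matricellular and matrix glycoprotein genes included calls that held with any library left out. Of 34 listed genes 21 were tested, 4 rose and 0 fell, 19 had a positive difference and the median was log2 0.87. Over 11 of the 21 the groups did not overlap, all with 14 dpi higher, beside 12.6% of all rows. Thbs2 (ENSMUSG00000023885), which encodes thrombospondin 2, an adhesion-modulating glycoprotein of wounds, measured 22.6, 9.43 and 9.02 in sham and 169.9, 260.1 and 203 at 14 dpi. Its lowest 14 dpi library was well above its highest sham library (log2 3.95 ± 0.45 SE, limma adjusted p = 0.000693). Tnc encodes tenascin C, a glycoprotein that appears in wounds and developing tissue, and measured 124, 78 and 62.2 in sham and 757, 591 and 525 at 14 dpi (log2 2.86 ± 0.39 SE, limma adjusted p = 0.00415). Thbs1, thrombospondin 1, a known activator of latent TGF-beta, measured 1452, 1075 and 1034 in sham and 3176, 3359 and 3655 at 14 dpi (log2 1.53 ± 0.21 SE, limma adjusted p = 0.00417). Thbs2, Tnc and Thbs1 stayed called whichever library was left out. Sparc, a collagen-binding glycoprotein, was already abundant in sham at 5742, 6389 and 8166 and measured 12841, 14287 and 12856 at 14 dpi (log2 0.99 ± 0.15 SE, limma adjusted p = 0.00568). Postn, periostin, also separated the groups, at 1407, 1928 and 2528 in sham against 3288, 5099 and 3279.9 at 14 dpi, and did not pass the test (log2 1.00 ± 0.31 SE, limma adjusted p = 0.178). Leaving out a library gave 3 to 5 called members.

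The fibrillar list holds fibrillar and fibril-associated collagen chains and others such as Col8a1 and Col6a6. Among its 20 tested collagens 6 rose, 0 fell and all 20 differences were positive, with a median of log2 0.97. The groups did not overlap for 13 of them, with 14 dpi higher, beside 12.6% of all rows. Col12a1 (ENSMUSG00000032332), a collagen that decorates fibrils in tissue under tension, measured 77.4, 111 and 169 in sham and 834, 989 and 756 at 14 dpi (log2 2.90 ± 0.42 SE, limma adjusted p = 0.00433). It was the member with the highest rise of the list, and it was called in all 6 left-out fits. Col8a1, a short-chain collagen of vessel walls and valves, measured 28.6, 9.43 and 34.3 in sham and 164, 134 and 131 at 14 dpi (log2 2.69 ± 0.48 SE, limma adjusted p = 0.0164). Col6a6, a collagen VI chain, measured 173, 441 and 302 in sham and 2175, 1139.6 and 1103 at 14 dpi, with 14 dpi 1 about as high as the other two together (log2 2.29 ± 0.48 SE, limma adjusted p = 0.0334). Its call was lost in each of the 6 left-out fits, with edgeR and with only these 2 groups in the fit.

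The tested chains of collagens I, III and V, which form fibrils, were high in sham and higher at 14 dpi. Col11a1, another fibrillar chain, was low in sham, at 19.0, 5.14 and 9.92. It measured 53.8, 80.3 and 28.8 at 14 dpi and was not called (limma adjusted p = 0.376). Col1a2, the alpha 2 chain of collagen I, measured 2609, 3104 and 4431 in sham and 9629, 10680.0 and 8841 at 14 dpi (log2 1.55 ± 0.31 SE, limma adjusted p = 0.0257). Col5a1 and Col5a2, chains of the collagen V that nucleates fibrils, had log2 differences of 1.07 (adjusted p = 0.0241) and 1.14 (adjusted p = 0.0288). Col1a1, the partner chain of Col1a2, measured 2535, 4374 and 6043 in sham and 14394, 15046 and 10407 at 14 dpi without overlap but was not called (log2 1.69 ± 0.45 SE, limma adjusted p = 0.108). Its sham libraries differed by over 2-fold among themselves. Col3a1 measured 16189, 18478 and 23788 in sham and 34685, 36196 and 39207 at 14 dpi and was not called either (log2 0.93 ± 0.34 SE, limma adjusted p = 0.271). The number of called collagens was 1, 1 and 3 without 14 dpi 1, 2 and 3, and 2, 1 and 4 without sham 1, 2 and 3.

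**Figure D2:**
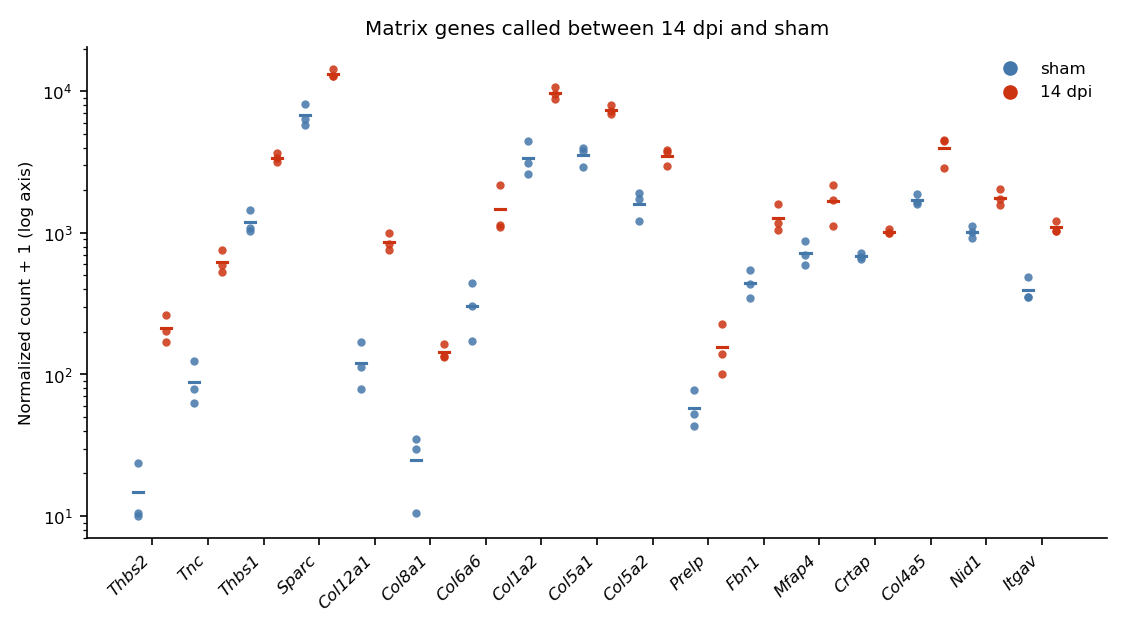
Normalized counts + 1 (y axis, log scale) of the 17 called matrix genes in the 3 sham libraries (blue) and the 3 libraries of 14 dpi (red), with horizontal bars at group means. For all 17 genes the lowest red point lies above the highest blue point, as it did for each of the 72 called genes in its direction.

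Proteoglycans, elastic fibre proteins and basement membrane genes rose in smaller numbers. Prelp, a leucine-rich proteoglycan that anchors basement membranes, was the called member of 15 tested proteoglycans (median log2 0.78), at 76.2, 51.4 and 42.4 in sham and 227, 138 and 99.1 at 14 dpi (log2 1.39 ± 0.29 SE, limma adjusted p = 0.0365). Its call was lost in 4 of 6 left-out fits, and the list median was 0.456 without 14 dpi 1 and 0.495 without sham 2. Aspn, asporin, measured 35.7, 25.7 and 63.1 in sham and 245, 200.1 and 91.1 at 14 dpi and did not pass (log2 2.06 ± 0.46 SE, limma adjusted p = 0.0539). Among 15 elastic fibre genes (median log2 0.72) Fbn1, which encodes the microfibril protein fibrillin 1, measured 345, 434 and 546 in sham and 1596, 1179 and 1041 at 14 dpi (log2 1.53 ± 0.29 SE, limma adjusted p = 0.0236). Mfap4, a microfibril-associated glycoprotein that also stands in the fibroblast list, had a log2 difference of 1.18 (adjusted p = 0.0334). Eln, elastin, measured 2306, 3705 and 3078 in sham and 8049.5, 5869 and 5474 at 14 dpi, not called (log2 1.10 ± 0.27 SE, limma adjusted p = 0.0741). All 20 tested basement membrane genes had positive differences (median log2 0.40). Col4a5 (log2 1.19, adjusted p = 0.0155) and Nid1, nidogen 1 that links laminin to collagen IV (log2 0.80, adjusted p = 0.0288), rose. The called members of the elastic and basement membrane lists each fell to 0 without 14 dpi 1, 14 dpi 2, sham 1 or sham 2.

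Enzymes that fold, crosslink or cut the matrix had smaller medians than the collagens. Of 27 tested folding and crosslinking genes (median log2 0.16), Crtap, a subunit of the collagen prolyl hydroxylation complex, rose from 674, 725 and 656 to 1058, 996 and 1003 (log2 0.57 ± 0.10 SE, limma adjusted p = 0.0179). Lox, which crosslinks collagen and elastin, measured 196, 143 and 252 in sham and 465, 344 and 364 at 14 dpi and was not called (log2 1.01 ± 0.36 SE, limma adjusted p = 0.254). Of 32 proteases and inhibitors (median log2 0.28, or 0.458 without sham 2, 28 positive), limma and edgeR called 0 and DESeq2 2. There were 10 at an unadjusted p under 0.05. The groups did not overlap for 11, with 14 dpi higher, beside 12.6% of all rows. Mmp2, gelatinase A, measured 1967, 1546 and 1501 in sham and 4911, 3262 and 2388 at 14 dpi (log2 1.02 ± 0.25 SE, limma adjusted p = 0.0747). Among 23 integrins and matrix receptors (median log2 0.59, or 0.374 without 14 dpi 1), Itgav, the alpha V integrin subunit that binds vitronectin and latent TGF-beta, rose from 487, 351 and 349 to 1217, 1034 and 1035 (log2 1.48 ± 0.23 SE, limma adjusted p = 0.0081).

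The matrix calls coincided with longer inferred transcripts. Relative length was inferred from the ratio of normalized count to FPKM and was not measured. By this ratio the 17 called matrix genes had a median 1.64 times that of all rows tested. The other 51 called higher had 1.20 times. Matrix genes that were not called were not compared in this way. With each library's trend on length removed, 65 genes rose and 9 fell, and the fibrillar list had 6 called members. The part of transcript length in the matrix calls was not tested.

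Other secreted proteins and regulators rose with the matrix genes, among them the largest rises of all. Cpe, carboxypeptidase E of peptide hormone processing, measured 5.95, 2.57 and 0 in sham, or 8 reads over the 3 libraries, and 123, 167 and 72.6 at 14 dpi (log2 5.31 ± 1.04 SE, limma adjusted p = 0.0241). Tnfaip6, a hyaluronan-binding protein induced by inflammatory signals, measured 1.19, 0.857 and 2.71, or 5 reads, and 83.8, 109.6 and 15 (log2 4.43 ± 0.98 SE, limma adjusted p = 0.0493). The sham values of Tnfaip6 lay at or below the 3-read floor, 14 dpi 3 was far below the other two, and its call was lost under 6 of 12 other settings and in 5 of 6 left-out fits. Cpe lost its call at a pseudocount of 0.1 and in 5 of 6 left-out fits, all but that without sham 1. Pamr1, a secreted protein first described in regenerating muscle, measured 10.7, 6.86 and 18 in sham and 47.9, 81.6 and 134 at 14 dpi (log2 2.76 ± 0.49 SE, limma adjusted p = 0.0164). Ccdc80, a matrix-associated protein, measured 137, 106 and 182 in sham and 811, 543 and 489 at 14 dpi (log2 2.11 ± 0.36 SE, limma adjusted p = 0.0136). Chosen after their values were seen, the secreted metalloproteinase Pappa, the guidance ligand Slit3, the vessel growth regulator Vash1 and the matrix protein Fndc1 also rose. Their log2 differences were 1.32, 1.46, 1.54 and 1.65 (limma adjusted p = 0.0228, 0.0228, 0.00917 and 0.0493). They were called in 1, 2, 4 and 2 of the 6 left-out fits, and Fndc1 under 5 of 12 other settings.

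Markers of the cells that could carry these changes were read beside them; in bulk RNA, fewer cells of a type and less RNA per cell cannot be told apart. Of 16 tested smooth muscle, pericyte and myofibroblast genes, Tagln was the only one called and 15 were positive (median log2 0.25). Tagln (ENSMUSG00000032085), an actin-binding protein of smooth muscle and early myofibroblasts, measured 17.9, 1.71 and 18 in sham and 747, 506 and 111 at 14 dpi (log2 5.14 ± 0.84 SE, limma adjusted p = 0.00917). The 14 dpi libraries differed by over 6-fold among themselves, and the call was lost without 14 dpi 1, 14 dpi 2 or sham 2. Acta2 had a log2 difference of 0.0209. This row lay at 1088 to 1774 FPKM, above the cardiomyocyte marker Actn2 (643 to 871 FPKM) and far above Myh11 (0.0618 to 0.238 FPKM). Whether it holds reads of other actin genes was not tested. Of 12 tested fibroblast genes, from 21 listed, 1 was called (Mfap4), with a median of log2 0.62. Of the 12, 9 were positive and 3 negative. At an unadjusted p under 0.05 there were 5 higher and 0 lower, beside 759 and 505 of all 9865 rows. The groups did not overlap for 4, with 14 dpi higher, beside 12.6% of all rows. Summed normalized counts of the 12 ran from 15685 to 21873 in sham and from 17418 to 24819 at 14 dpi. The fibroblast receptor gene Pdgfra measured 555, 367 and 455 in sham and 749, 769.9 and 691 at 14 dpi, without overlap but not called (log2 0.70 ± 0.26 SE, limma adjusted p = 0.279). The part of cell numbers in the matrix result was not tested.

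Epicardial genes were uneven among the 14 dpi animals. Of 18 listed genes 7 were tested. limma and edgeR called 0 of these 7 members (median log2 0.84) and DESeq2 1, with 5 at an unadjusted p under 0.05. The library medians, relative to the mean of the 6, were -0.212, 0.662 and 1.05 at 14 dpi against -0.533 to -0.0514 in sham. Krt8, a keratin of the epicardial and other epithelia, measured 32.1, 13.7 and 124 in sham and 160.3, 654 and 746 at 14 dpi (log2 3.44 ± 0.88 SE, limma adjusted p = 0.0949). Wt1, a transcription factor of the epicardium, measured 54.7, 72.9 and 96.5 in sham and 86.2, 232 and 332 at 14 dpi (log2 1.36 ± 0.56 SE, limma adjusted p = 0.315). Both were lowest in 14 dpi 1 among the 14 dpi libraries. Of the 7 members 5 were positive and 2 negative. Aldh1a2, a retinoic acid synthesis enzyme and epicardial marker, had the opposite sign, at 60.7, 66.9 and 107 in sham and 16.8, 37 and 79.5 at 14 dpi (log2 -1.02 ± 0.54 SE, limma adjusted p = 0.451). Summed over the list, levels ran from 670.0 to 1019 in sham and from 1009.9 to 2707 at 14 dpi.

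The erythrocyte, macrophage and endothelial lists gave 0 calls by limma and edgeR. Of 25, 28 and 29 listed genes only 9, 10 and 20 were tested. Markers such as Cd68, Adgre1, Mpeg1 and Pecam1 were not among them. At an unadjusted p under 0.05 there were 3 of the 9, 4 of the 10 and 4 of the 20, beside 1264 of all 9865 rows. DESeq2 called 0, 1 and 1. All 9 erythrocyte and thrombocyte genes were positive (median log2 0.48), and the alpha globin row Hba-a1, one of a family of near-identical copies and so uncertain, measured 1627, 549 and 4502 in sham and 4163, 8426 and 18740.0 at 14 dpi. The highest value was in 14 dpi 3, and the sums of the list ran from 12771 to 17754 in sham and from 16706 to 36970.0 at 14 dpi. For 10 macrophage genes (median log2 0.39) 14 dpi 1 stood at a library median of 0.788, while 14 dpi 2 and 3 were at -0.127 and -0.155. Without 14 dpi 1 the median difference was 0.01. For the erythrocyte list it was 0.756 without 14 dpi 1 and 0.263 without 14 dpi 3. The 20 endothelial genes were split, 10 up and 10 down, with a median of log2 0.01. Within them Cdh5, the endothelial cadherin, measured 207, 292 and 391 in sham and 674, 565 and 438 at 14 dpi, and Kdr, the VEGF receptor, measured 3301, 5600.3 and 5568 in sham and 3435, 2774 and 3589 at 14 dpi. Neither was called (adjusted p = 0.119 for Cdh5 and adjusted p = 0.3 for Kdr by limma).

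Immediate early genes, which encode transcription factors and phosphatases that cells switch on fast after a stimulus, included a separate set of calls. Of 27 tested members 4 rose, 0 fell and 15 were positive (median log2 0.12). Nr4a3 (ENSMUSG00000028341), an orphan nuclear receptor, measured 1666, 366 and 719.6 in sham and 9494, 7156 and 12109 at 14 dpi (log2 3.62 ± 0.62 SE, limma adjusted p = 0.0136). Dusp5, a phosphatase of ERK, measured 163, 99.4 and 190.3 in sham and 625, 566 and 821 at 14 dpi (log2 2.18 ± 0.27 SE, limma adjusted p = 0.00116). Sik1, a salt-inducible kinase, measured 727, 901 and 1847 in sham and 3169, 2808 and 4596 at 14 dpi (log2 1.69 ± 0.30 SE, limma adjusted p = 0.0155), and Fosl2, an AP-1 subunit, had a log2 difference of 1.63 (adjusted p = 0.0288). Against this, Dusp1, another early phosphatase, measured 4777, 17381 and 14577 in sham and 2093, 2065 and 3426 at 14 dpi, lower at 14 dpi but not called (log2 -2.12 ± 0.64 SE, limma adjusted p = 0.161). 1 to 3 members were called when a library was left out, and the list median ran from 0.03 (without sham 3) to 0.277 (without sham 2).

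The untouched controls placed these early genes differently from the matrix genes. Nr4a3 measured 5819, 3893 and 11052 in control, a range that meets the 14 dpi libraries and lies above all 3 sham libraries. For the 4 early members, 14 dpi minus control was log2 -0.30 to 0.57, and sham minus control was -3.05 to -1.13. Between sham and control limma called 0 of all 9865 rows. None of the 4 early members passed, with limma adjusted p of 0.0568 for Dusp5 and Sik1, 0.186 for Nr4a3 and 0.689 for Fosl2. In the other injured groups these genes were also above sham. At 3, 30 and 100 dpi Sik1 was log2 1.90, 2.18 and 1.83 above sham, and Dusp5 1.36, 1.58 and 1.32. Fosl2 was log2 1.62, 1.68 and 1.16 above sham. Sik1, Dusp5 and Fosl2 passed by limma each time. Nr4a3 was log2 1.92, 3.66 and 2.07 above sham and passed at 30 dpi only (limma adjusted p = 0.118, 0.0017 and 0.0567). The 4 were picked for being higher at 14 dpi than in sham, which favours genes that are low in sham. Over all 27 tested members of the early list, median sham minus control was log2 -1.13 and median 14 dpi minus control -0.58. The list's library medians ran from 0.393 to 1.34 in control, -0.548 to 0.080 in sham and -0.0201 to 0.524 at 14 dpi. For the 17 matrix genes, 14 dpi minus control was 0.52 to 3.54 with a median of 1.44, and sham minus control was -0.95 to 0.63. Slc1a5, a glutamine transporter among the 20 largest rises, had control values of 274, 519 and 1282, sham values of 149, 93.4 and 115 and 14 dpi values of 414, 409 and 718 (log2 2.07 ± 0.40 SE, limma adjusted p = 0.0236 against sham). Of the 68 genes higher than sham, 19 lay within log2 0.6 above control or below it, and 14 had sham more than log2 1 below control. Slc1a5 did not pass between sham and control either (limma adjusted p = 0.0791). At 3, 30 and 100 dpi it was log2 2.13, 2.33 and 1.64 above sham and passed each time (limma adjusted p = 0.0426, 0.00193 and 0.0224). These contrasts share libraries with each other and are given side by side. The limit of 0.6 was set after the values were seen.

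**Figure D3:**
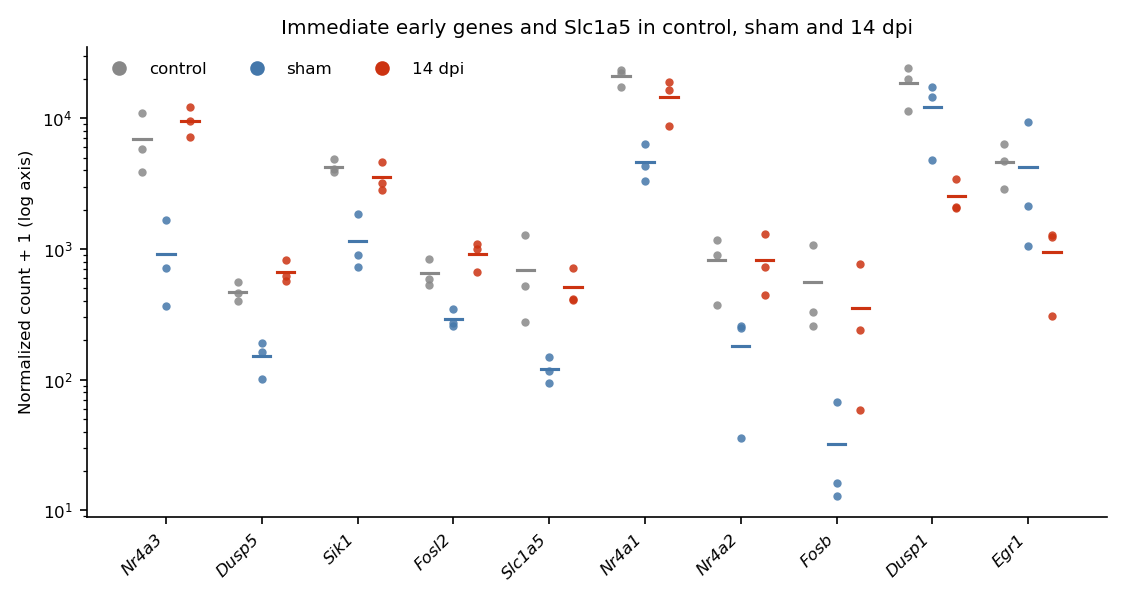
Normalized counts + 1 (y axis, log scale) in control (grey), sham (blue) and 14 dpi (red) libraries for 9 immediate early genes and Slc1a5, with bars at group means. Nr4a3, Dusp5, Sik1, Fosl2 and Slc1a5 were called between 14 dpi and sham. Their sham libraries lie below the grey and red ones, whereas Dusp1 is lowest at 14 dpi.

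Signalling lists had medians near 0 with members in both directions. Of 42 tested TGF-beta and BMP genes (median log2 0.10) Fstl1, a secreted follistatin-like glycoprotein, was called, at 2519, 3121 and 3091 in sham and 6057, 5722 and 5195 at 14 dpi (log2 0.96 ± 0.16 SE, limma adjusted p = 0.0136). Of the 42, 24 were positive and 18 negative, and the groups did not overlap for 13 with 14 dpi higher and 8 with 14 dpi lower. Over all rows these shares were 12.6% and 11%. At an unadjusted p under 0.05 there were 9 higher and 3 lower, and DESeq2 called 3. The median was 0.196 without sham 3 and 0.0558 without 14 dpi 2. Smad6, an inhibitory SMAD of BMP signalling, measured 3409, 3434 and 4043 in sham and 1487, 1675 and 1873 at 14 dpi without overlap, just outside the threshold (log2 -1.11 ± 0.26 SE, limma adjusted p = 0.0653). limma and edgeR called 0 of 42 Wnt and Hedgehog genes (median log2 0.19) and 0 of 42 growth factor genes (median log2 0.13). DESeq2 called 1 in each list, and 10 and 8 were at an unadjusted p under 0.05. The groups did not overlap, with 14 dpi higher, for 13 Wnt and Hedgehog and 8 growth factor genes, and with 14 dpi lower for 2 in each list. Among the 4 falls, Spry1, a feedback inhibitor of receptor tyrosine kinase signalling, measured 1240.0, 1338 and 1047 in sham and 449.9, 556 and 604 at 14 dpi (log2 -1.17 ± 0.22 SE, limma adjusted p = 0.0207). The retinoic acid receptor gene Rara measured 741, 689 and 656 in sham and 519, 439.8 and 490.0 at 14 dpi (log2 -0.53 ± 0.11 SE, limma adjusted p = 0.0334). Mettl6, a tRNA methyltransferase, and Armc5 fell by 0.63 and 0.54 on the log2 scale (adjusted p = 0.0228 and adjusted p = 0.0493). Rara, Mettl6 and Armc5 lost their calls in each of the 6 left-out fits, and Spry1 in 4 of them. Among the genes that ranked next among falls, Ciao3, C1qbp, Fut2, Smad6 and Peli1 were not called, with adjusted p from 0.0539 to 0.0705.

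Mitosis genes were all positive, and limma, edgeR and DESeq2 called 0 of them. At an unadjusted p under 0.05 there was 1. All 44 tested mitosis and cytokinesis genes had a positive difference, with a median of log2 1.07. The groups were separate for only 1 of them, with 14 dpi higher, beside 12.6% of all rows. The library medians, relative to the mean of the 6, were -1.92, -0.632 and 0.958 in sham and 0.962, 1.00 and -0.267 at 14 dpi, so sham 3 stood as high as the 2 highest libraries of 14 dpi. Cdk1, the mitotic kinase, measured 27.4, 60.0 and 365 in sham and 217, 331 and 73.8 at 14 dpi (log2 1.03 ± 1.20 SE, limma adjusted p = 0.759). The list's median difference was 0.29 without sham 1 and 1.84 without sham 3. The control library medians ran from -2.38 to -1.80, a range that holds sham 1. Of 50 S phase genes 39 were positive (median log2 0.40), 6 had an unadjusted p under 0.05 and the 3 tools called 0. Without sham 1 the median was 0.069 and 28 of the 50 were positive. Mcm2, a subunit of the replicative helicase, measured 161, 816 and 439 in sham and 702, 340.4 and 751 at 14 dpi, and its sign changed when sham 1 was left out.

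The heart muscle and metabolic lists gave 0 calls by limma and edgeR. Pdk3, a metabolic gene outside these lists, was called and is described below. In the sarcomere, calcium handling, citric acid cycle, cytosolic ribosomal and oxidative phosphorylation lists, 2, 3, 8, 5 and 5 genes were at an unadjusted p under 0.05, and DESeq2 called 1, 0, 0, 0 and 1. The 26 sarcomere genes had a median of log2 0.00 with 13 positive, and the 20 calcium handling genes 0.09. Myh6 measured 263030.0, 276740.0 and 273300.0 in sham and 326600.0, 299610.0 and 335860.0 at 14 dpi, and Myh7, the other heavy chain, 37811, 37599 and 35230.0 in sham and 28143, 30753 and 34087 at 14 dpi. The cardiac troponin T gene Tnnt2 measured 74270.0, 93386 and 113370.0 in sham and 71234, 85012 and 104560.0 at 14 dpi (log2 -0.10 ± 0.23 SE, limma adjusted p = 0.886), and its sign changed when 14 dpi 1 or sham 3 was left out. Citric acid cycle genes were lower in 24 of 26 members (median log2 -0.23), cytosolic ribosomal protein genes in 76 of 78 (-0.17) and oxidative phosphorylation genes in 45 of 51 (-0.15). Without sham 1 the ribosomal median was -0.065, with 18 of 78 positive. The oxidative phosphorylation median ran from -0.25 (without 14 dpi 3) to -0.08 (without 14 dpi 2), and was -0.094 without sham 2. Glycolysis genes had a median of -0.21, mitochondrial ribosomal protein genes -0.10 and fatty acid oxidation genes -0.05. With one library left out these ran to -0.122 (without sham 3), -0.182 (without 14 dpi 3) and -0.19 (without 14 dpi 3), and the fatty acid median changed sign without 14 dpi 2 (0.0078). These medians were small, and the library medians of the citric acid cycle, ribosomal and oxidative phosphorylation lists overlapped between the groups. For the citric acid cycle the overlap was narrow (highest 14 dpi 0.0448, lowest sham 0.0360). Groups were separate, 14 dpi lower, for 9 of 26 citric acid cycle and 11 of 51 oxidative phosphorylation genes. For ribosomal genes it was 9 of 78, and over all rows 11%. In these lists 0 members were separate with 14 dpi higher, beside 12.6% of all rows.

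**Figure D4:**
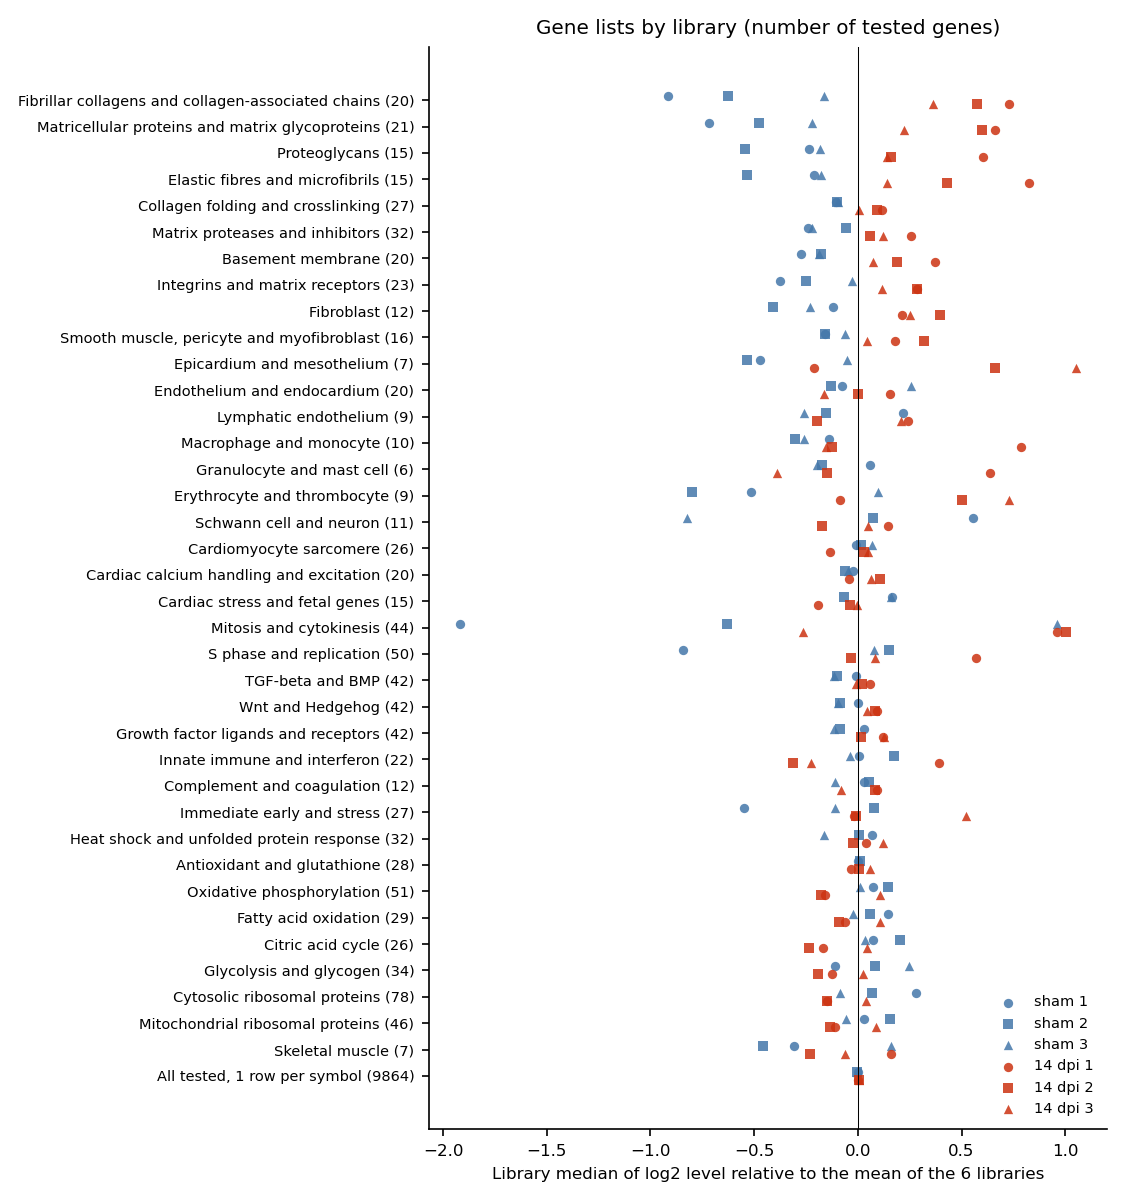
Library medians of log2 level relative to the mean of the 6 libraries (x axis) for gene lists with at least 5 tested genes (y axis, number in brackets), with sham in blue and 14 dpi in red. The 8 matrix lists at the top have all 3 red points to the right of the blue ones. So do the fibroblast, smooth muscle, TGF-beta and Wnt lists. The entry for all tested rows does so too, by a very small margin (highest sham 1.84e-05, lowest 14 dpi 0.0020). The mitosis list has sham 3 at 0.958 beside 14 dpi 1 and 2.

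Several called genes belong to no list. Zcchc24 (ENSMUSG00000055538), a zinc finger gene, had the smallest adjusted p of the comparison and measured 40.5, 61.7 and 66.7 in sham and 389, 391 and 339 at 14 dpi (log2 2.74 ± 0.25 SE, limma adjusted p = 0.000109). Its 3 libraries at 14 dpi were close together and far above sham. Pdk3, a kinase that inhibits pyruvate dehydrogenase, chosen after its values were seen, measured 458, 607 and 626 in sham and 1201, 1208 and 1237 at 14 dpi (log2 1.12 ± 0.12 SE, limma adjusted p = 0.000383). It was called under every setting and left-out library tried, as were 6 other genes. Cbx6, a Polycomb chromobox gene, measured 8.33, 4.29 and 2.71 in sham and 26.3, 39.5 and 30.0 at 14 dpi (log2 2.52 ± 0.43 SE, limma adjusted p = 0.0135). Unc5b, a netrin receptor of axons and vessels, measured 10.7, 4.29 and 6.31 in sham and 20.3, 43.3 and 33.4 at 14 dpi (log2 2.06 ± 0.36 SE, limma adjusted p = 0.0155). Rcan2, a calcineurin regulator, measured 85.7, 80.6 and 309 in sham and 521, 636 and 368 at 14 dpi, with sham 3 close to the lowest 14 dpi library (log2 1.93 ± 0.37 SE, limma adjusted p = 0.0236). Rcan2 lost its call with edgeR and with only the 2 groups in the fit, and was called in 2 of 6 left-out fits. Hivep3 rose by log2 2.42 and was called in all 6 left-out fits. Rhpn2 rose by log2 3.52, but lost its call with edgeR, with the FPKM table, with only the 2 groups in the fit and in 5 of 6 left-out fits.

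Some of the called genes also differed between 14 and 30 dpi, which are different animals. A gene not called between these times was not shown to be unchanged. Against 30 dpi, 392 of the 9865 rows (3.97%) differed from 14 dpi, 156 (1.58%) higher and 236 (2.39%) lower at 14 dpi. Of the 72 genes called against sham, 19 were higher at 14 than at 30 dpi and 11 were lower. Among the 11, Pdk3, Nbeal1, Hps5, Pappa, Rsbn1, Lifr and Nalcn were chosen after their values were seen, with 14 dpi minus 30 dpi from log2 -2.71 (Nbeal1) to -0.86 (Nalcn). Col12a1 measured 834, 989 and 756 at 14 dpi and 168 ± 81.9 (mean ± SD, n = 3) at 30 dpi, while Zcchc24 measured 1189.5 ± 174 at 30 dpi, above its 14 dpi values. Against 3 dpi limma called 0 genes, with 1190 at an unadjusted p under 0.05, a lowest adjusted p of 0.0513, and 83 called by DESeq2. These comparisons share the 14 dpi libraries with the one against sham. Genes picked as higher than sham tend to be high in those libraries, which favours lower values at other times.

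**Figure D5:**
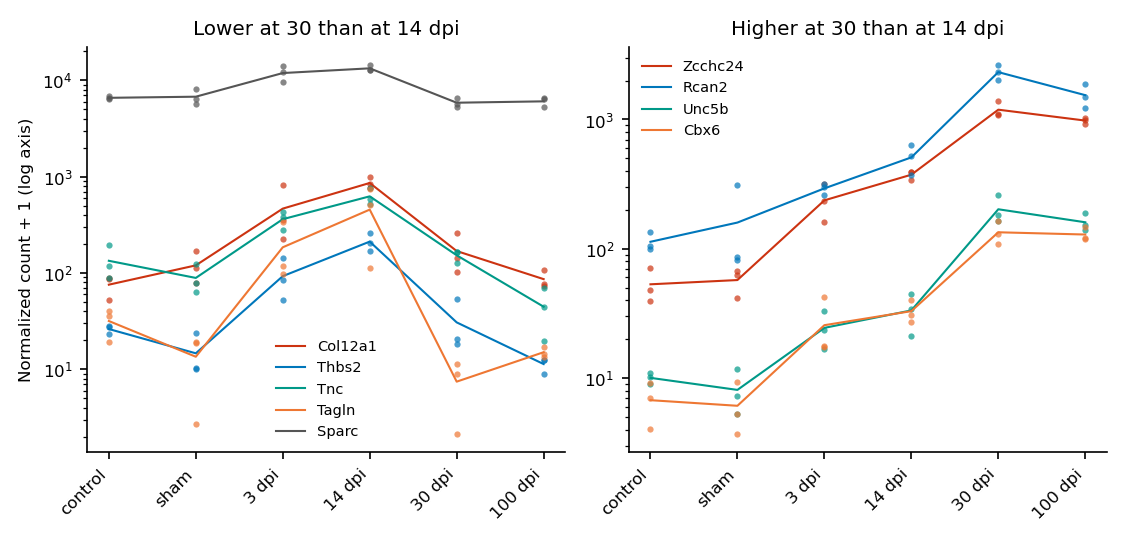
Normalized counts + 1 (y axis, log scale) in the 6 groups (x axis, not to time scale) for 9 genes that were called higher at 14 dpi than in sham and differed between 14 and 30 dpi; points are libraries and lines join group means. Col12a1, Thbs2, Tnc, Tagln and Sparc peak at 14 dpi among the group means, while Zcchc24, Rcan2, Unc5b and Cbx6 are highest at 30 dpi. None of the 9 was called by limma between 14 and 3 dpi. At 3 dpi Thbs2, Tnc, Tagln and Sparc already passed against sham (limma adjusted p = 0.0412, 0.0426, 0.0438 and 0.0426). So did Zcchc24, Unc5b and Cbx6 (0.0061, 0.0473 and 0.0438). Col12a1 (0.0565) and Rcan2 (0.115) did not.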

How the data were processed

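Poly-A RNA of 18 ventricles (6 groups of 3) was sequenced. HISAT2 (2.2.0), StringTie (2.2.1) and, in addition, Salmon (1.8.0) are named in the submitters' processing notes; per the series design text reads were aligned to a gecko genome, assembled and annotated with mouse genes. Normalized counts, which are a signal scaled per library, and FPKM values were deposited by the authors as tables; the scaling method is not given in the sources used here. Every value of the signal table was a whole multiple of 1 step per library (tolerance 0.1 of a read, 100% of values), so reads were recovered by division.

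log2(normalized count + 1) values of all 18 libraries were fitted in 1 limma-trend model (limma 3.58.1, R 4.3.3) with 6 group means and no replicate block, on rows with a mean of at least 10 over the 6 libraries compared. Tests are two-sided, with Benjamini-Hochberg adjustment over 9865 rows. There are 12 residual degrees of freedom per gene, with a prior df of 3.618. An exact permutation test of 3 against 3 cannot go below 0.1 and was used for no call. Lists are described by counts and medians, without a set test. The scripts were tested on simulated data.

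Members and gene lists were chosen with earlier results of these data known. Named genes are list members, the 20 largest rises and the falls among called genes (mouse-style symbols, falls filled up to 10 by the smallest p); others are said to have been chosen after their values were seen. A few genes it selects are left unreported. The alternatives were pseudocounts of 0.1 and 10, no filter, the minimum over all 18 libraries, TMM and median-of-ratios factors, the FPKM table (log2(FPKM + 0.1), mean of at least 0.5), only the 2 groups in the fit, a replicate block, edgeR 4.0.16 and DESeq2 1.42.0 on recovered reads, removal of each library's length trend, and each library left out. Figures used matplotlib 3.10.9.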

Additional observations from a re-analysis of the deposited data

Results flagged for a closer look

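For 21 of the named genes that were called against sham, the difference between 14 and 30 dpi was itself past the threshold in the same limma model (adjusted p under 0.05). The 21 are those named by rank or list, and 17 of them were lower at 30 dpi. Most calls against sham were rises at 14 dpi, and picking these favours genes that are high in the same 14 dpi libraries. Over all 72 called genes the split was more even, with 19 higher and 11 lower at 14 than at 30 dpi. On the log2 scale, 14 dpi minus 30 dpi was 5.859 for Tagln, 4.96 for Tnfaip6 and 4.545 for Cpe, the 3 largest. Tnfaip6 measured 69.5 ± 48.9 (mean ± SD, n = 3) at 14 dpi and 0.82 ± 0.72 at 30 dpi, below the 3-read floor. Cpe measured 121 ± 47.2 and 8.39 ± 10.8. Among matrix genes it was 2.997 for Col8a1, 2.944 for Thbs2, 2.447 for Col12a1, 2.027 for Tnc, 1.462 for Col1a2, 1.438 for Mfap4, 1.19 for Sparc, 1.088 for Col4a5, 1.062 for Col5a1, 0.6209 for Nid1 and 0.517 for Crtap. It was 2.811 for Rhpn2, 2.004 for Ccdc80 and 0.9963 for Fstl1. The 4 genes higher at 30 dpi were Unc5b at -2.633, Rcan2 at -2.218, Cbx6 at -2.026 and Zcchc24 at -1.664. With each library's length trend removed 20 of the 21 were still called, with Rhpn2 at an adjusted p of 0.0534, and edgeR called all 21 between 14 and 30 dpi. The cause of these differences was not tested.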

How the results depend on the processing

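Against sham, 72 genes were called in all, 68 higher and 4 lower. DESeq2 gave 250 (199 higher, 51 lower) and a fit of only the 2 groups gave 42 (38 higher). The lower calls numbered 7 with TMM factors and 9 with length trends removed. With one library left out the count ran from 11 to 53 in all, from 11 to 50 higher and from 0 to 3 lower. The cause of these shifts was not tested, apart from the fewer samples in the last fits. Against 3 dpi the 0 calls became 83 with DESeq2, 1 with the FPKM table, 32 with no filter on low genes, and 0 to 1 with one library left out. Against 30 dpi the 392 calls became 764 with DESeq2, 178 with length trends removed, 186 with only the 2 groups and 139 to 481 with one library left out.

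Same-numbered sham and 14 dpi libraries did not deviate together over the tested rows (correlations of -0.0715, -0.167 and -0.151). A small shared effect, or one on few genes, would not show in this check. It does not settle whether the numbers pair the animals. With a replicate block 53 genes were called, 51 higher and 2 lower, and 298 against 30 dpi.

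Direction reversed in 2 of 169 named genes, neither of them called. With one library left out, the log2 difference of Mcm2 ran from -0.086 (without sham 1) to 1.08 (without sham 2). That of Tnnt2 ran from -0.26 (without sham 1) to 0.044 (without sham 3), and was 0.031 without 14 dpi 1. Among the 72 calls, 22 held under all 12 other settings, and 7 held also with each library left out. With 3 animals a group, differences below the spread of single animals were not detectable, and genes near the floor of 3 reads, such as Tnfaip6 in sham, carry the widest counting error.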
